A study of Mus musculus with 8 samples.

Results

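The 9 genes described here serve osteoclasts, the cells that resorb bone: the receptors Tnfrsf11a, Oscar and Calcr, the transcription factor Nfatc1, the fusion genes Dcstamp, Ocstamp and Atp6v0d2, and the resorption enzymes Acp5 and Ctsk. They were chosen by symbol and are 9 of the 21895 genes in the deposited table of cochlear RNA-seq. Each was found 1 time in that table. Total RNA of the removed cochlea was sequenced from miR-29a WT mice (WT1 to WT4) and from mice with the genotype miR-29a-/- (KO1 to KO4), with 4 libraries per group. Both groups belong to a C57BL/6 line bred from heterozygotes, and the deletion is not limited to a cell type, so that bone, marrow and cochlear cells of the KO animals all carry it. Both sexes were used in the study, and the sex of each library was not given. The sample records give an age of 21 days, whereas the methods of the study give another age, 2 months. Nothing in the sources says whether a library came from 1 mouse or from a pool, so the p-values below measure only the spread between these samples, which may be technical.

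Osteoclasts form when precursors of the monocyte lineage, held alive by M-CSF, receive the cytokine RANKL through its receptor RANK. The signal runs through TRAF6, NF-κB and AP-1 to NFATc1, which switches on the genes for cell fusion, acid secretion and matrix breakdown. The cochlea lies in the otic capsule, a part of the temporal bone that is known for very little remodelling after development, and osteoprotegerin, the soluble decoy for RANKL, is known to be made at high levels in the inner ear. MicroRNAs of the miR-29 family are known to act in osteoclast precursors, with Calcr, Cdc42, Srgap2, Nfia, Gpr85 and Cd93 described as targets there.

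The deleted microRNA and its relatives share 1 seed, the stretch of 7 bases that pairs with a target. The mature sequences (RefSeq, GRCm38.p6) are shown because any 3′-UTR match below is a match to all of them, and the capitals mark the seed. The deleted sequence lies on the minus strand at chr6:31062673-31062694. MiR-29a itself was not analysed here, and its loss was therefore not used to check the labels.
miR-29a-3p: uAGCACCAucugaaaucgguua
miR-29b-3p: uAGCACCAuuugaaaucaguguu
miR-29c-3p: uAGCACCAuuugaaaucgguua

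The reverse complement of that seed in DNA letters, TGGTGCT, was sought on the sense strand of the longest 3′-UTR of each gene (GENCODE M21, GRCm38). It occurred in 3 of the 9 osteoclast genes, Ctsk, Ocstamp and Nfatc1, and in 2758 of 21037 genes with a 3′-UTR (13.1%). In Ctsk, whose 3′-UTR has 440 bases, the match spans bases 140 to 146, on the plus strand at chr3:95509062-95509068. In Ocstamp, it spans bases 1764 to 1770 of 2086, on the minus strand at chr2:165394076-165394082, and an A follows it. The pieces below show these matches in capitals, so that they can be set beside that of Cd93 (chr2:148440850-148440856, minus strand), the described target that was called in the test below. Calcr, a described target of the family, holds 0 copies of the 7-base word in its 3′-UTR of 1715 bases and 2 copies of the shorter GGTGCT, which occurs in 28.3% of genes. A match is a description of these letters and says nothing about whether the site is used.
Ctsk 3′-UTR: catttctcctctcgtTGGTGCTtccagtga
Ocstamp 3′-UTR: tgggtccattgggggTGGTGCTatccctgg
Cd93 3′-UTR: catcgaaggagttacTGGTGCTaattacaa

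RefSeq promoters (GRCm38.p6, mostly upstream of an annotated start) were given for 5 of the 9 genes. The core of the NFAT site, GGAAA or its reverse TTTCC, was found in 6 of their 8 promoters, and in 20151 of 32851 promoters of all genes (61.3%). The promoters of the resorption enzymes are shown because these are the most abundant members and moved together across libraries, with the core in capitals. They lie at chr3:95498960-95499259 on the plus strand and at chr9:22135697-22135996 on the minus strand, the first of 3 starts given for Acp5.
Ctsk promoter: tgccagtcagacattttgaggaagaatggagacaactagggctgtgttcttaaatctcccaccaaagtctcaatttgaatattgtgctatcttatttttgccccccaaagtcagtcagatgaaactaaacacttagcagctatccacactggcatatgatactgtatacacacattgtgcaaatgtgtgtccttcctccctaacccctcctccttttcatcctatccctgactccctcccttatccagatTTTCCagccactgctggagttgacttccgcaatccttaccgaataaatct
Acp5 promoter: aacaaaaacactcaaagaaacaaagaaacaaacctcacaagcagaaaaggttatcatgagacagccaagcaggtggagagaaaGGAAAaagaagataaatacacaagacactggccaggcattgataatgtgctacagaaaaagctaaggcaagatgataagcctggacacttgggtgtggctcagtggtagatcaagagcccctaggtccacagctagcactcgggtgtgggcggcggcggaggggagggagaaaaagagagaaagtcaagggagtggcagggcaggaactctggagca

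Expression was deposited as FPKM (fragments scaled to transcript length and to all mapped fragments), so that levels of different genes can be set side by side per length. From the steps between the low values of genes with 1 transcript, each library was estimated to hold 21680000 to 26570000 fragments. The total FPKM ranged from 249221 to 288695, and the 10 most abundant genes took 17.6% of it in WT1 against 8.50% to 10.9% in the other libraries. WT1 and WT3 stood apart from the rest of their group. WT1 had the highest FPKM of the 8 libraries for 5 of the 9 osteoclast genes, ranked next for Dcstamp and Ocstamp, and was the lowest for Tnfrsf11a, whereas WT3 was lowest for 7 of the 9. Results are therefore given with all 8 libraries and, for the members, for every list and for each named gene whose call changed, also without WT1. For the members, the fit without WT3 follows that without WT1. The fit without WT1 and WT3, added after the data had been seen, is given with the processing alternatives.

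In the KO cochleae, Ctsk and Tnfrsf11a had higher expression than in WT at the study's threshold, an unadjusted p under 0.05. All 7 genes that could be tested had a positive log2 fold change, as did 9962 of the 14990 genes tested. The median of the 7 was 0.74, against 0.10 for all tested genes. Of these 7, 2 were called higher and 0 lower. The test was limma's on log2(FPKM + 0.1), for genes whose mean FPKM reached 0.5, and among all 14990 genes tested 691 were called higher in KO (4.61%), 76 lower and 767 in either direction (5.12%). This split depended on the scaling of the libraries: median-ratio scaling gave 402 higher and 363 lower, quantile normalization 378 and 547, and both called 1 member, Ctsk. Without KO3, 0 of the 7 members were called by limma, at 347 genes over all. With Benjamini-Hochberg adjustment over all tested genes, limma called 0 members and 0 genes, and the adjusted p of the members lay between 0.947 and 0.975. Calcr and Ocstamp were below the filter and are described by their values. Dcstamp passed it only through its KO level, since its WT mean was 0.455. A gene that passes in this way had to be higher in KO.

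**Figure D1:**
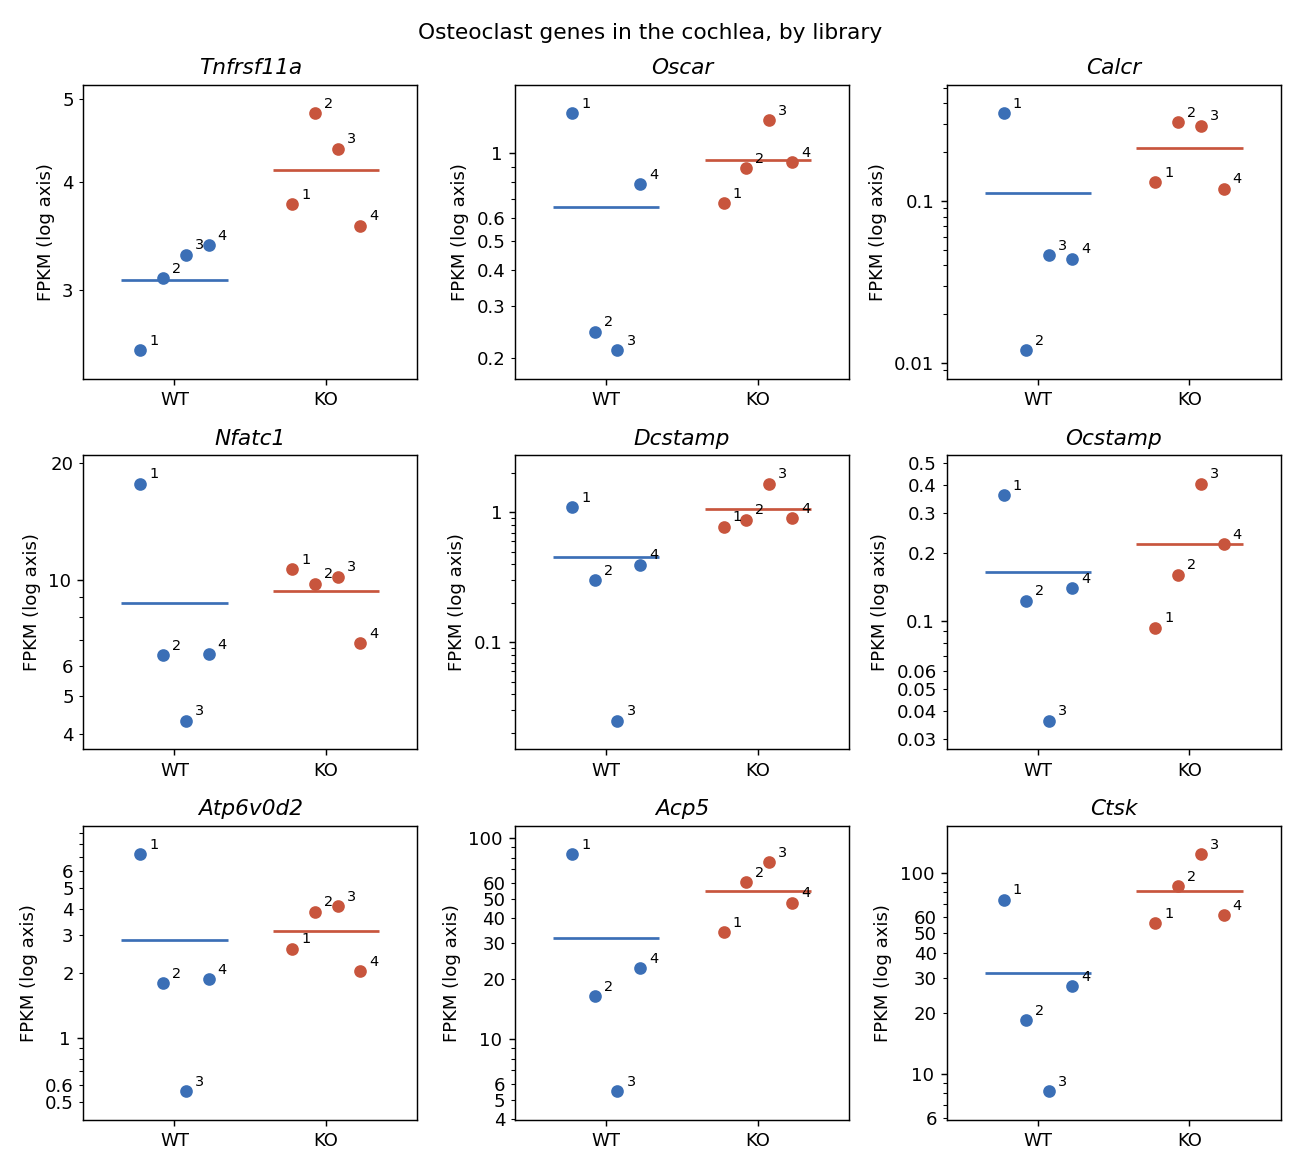
FPKM of the 9 osteoclast genes in each library, on a log axis that differs between panels. Points are libraries, numbered by replicate, and horizontal lines are the means of the 4 WT (blue) and 4 KO (red) libraries. For Tnfrsf11a the KO values lie above all WT values, whereas for the other 8 genes WT1 lies within or above the KO values.

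Tnfrsf11a (ENSMUSG00000026321, chr1:105780718-105847981, plus strand, on GRCm38 as are the genes below) encodes RANK, the receptor for RANKL. Its FPKM was 2.55, 3.10, 3.30 and 3.38 in WT1 to WT4 and 3.77, 4.81, 4.37 and 3.56 in KO1 to KO4. The 4 KO libraries all lay above the 4 WT libraries, and no other member had groups that did not overlap, against 3.02% of tested genes with every KO value above every WT value. The WT libraries averaged 3.08 ± 0.371 and the KO libraries 4.13 ± 0.568 (mean ± SD, n = 4). The exact permutation test gave the smallest two-sided p that 4 against 4 allow, 0.0286. Tnfrsf11a rose by a log2 fold change of 0.41 (standard error 0.18, limma's unadjusted p = 0.0495, adjusted p = 0.947). This call lay at the edge of the threshold, and it was lost in 12 of 17 alternative settings, without WT1 among them (log2 fold change 0.32, unadjusted p = 0.0775, adjusted p = 0.305).

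Oscar (ENSMUSG00000054594, chr7:3609813-3616229 in the deposited table) encodes a co-stimulatory receptor that signals beside RANK. Its FPKM was 1.37, 0.246, 0.212 and 0.784 in WT1 to WT4 and 0.675, 0.889, 1.30 and 0.930 in KO1 to KO4. WT1 was the highest of all 8 libraries, WT4 lay among the KO libraries, and WT2 and WT3 lay below them. The log2 fold change of 0.74 had a 95% interval from -0.46 to 1.95 (limma's unadjusted p = 0.194, exact permutation p = 0.286). Without WT1, Oscar was called higher, with a log2 fold change of 1.17 (unadjusted p = 0.0274, adjusted p = 0.203), although the value of WT4 still exceeded that of KO1. In that fit the WT mean of Oscar, 0.414, was below the filter, and Oscar passed only through its KO mean of 0.949.

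Calcr (ENSMUSG00000023964, chr6:3685680-3764714, minus strand) encodes the calcitonin receptor, through which calcitonin halts resorption, and it marks mature osteoclasts. Its FPKM was 0.347, 0.0120, 0.0462 and 0.0441 in WT1 to WT4 and 0.131, 0.307, 0.292 and 0.119 in KO1 to KO4. With the length of its longest transcript, these values correspond to about 34.3, 1.01, 4 and 3.6 fragments in WT and 13.1, 25.9, 25.9 and 10.1 fragments in KO. Only WT1 reached the KO libraries. The mean of log2(FPKM + 0.1) was higher in KO by 0.73, a difference that the exact two-sided permutation test did not tell from the spread (p = 0.2). Without WT1, the difference was 1.17, and the exact permutation p of 0.0286 is the smallest that 3 against 4 libraries allow.

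Nfatc1 (ENSMUSG00000033016) encodes the master transcription factor of the lineage, which is also used in other cells such as lymphocytes and endothelium. Its FPKM was 17.7, 6.39, 4.32 and 6.42 in WT1 to WT4 and 10.7, 9.76, 10.2 and 6.85 in KO1 to KO4. WT1 had the highest value and the 3 other WT libraries lay below every KO library, KO4 being close to WT4. Over the 8 libraries the group means were 8.71 ± 6.07 for WT and 9.36 ± 1.71 for KO (mean ± SD, n = 4). The log2 fold change was 0.30, with a 95% interval from -0.60 to 1.19 (limma's unadjusted p = 0.471, exact permutation p = 0.629). Without WT1, Nfatc1 was called higher, by 0.71 (unadjusted p = 0.00923, adjusted p = 0.152).

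The fusion of precursors into a cell with many nuclei needs DC-STAMP and OC-STAMP, a pair of membrane proteins, and is aided by Atp6v0d2, a subunit of the vacuolar proton pump. For Dcstamp (ENSMUSG00000022303, chr15:39745930-39760938, plus strand), FPKM was 1.10, 0.300, 0.0250 and 0.395 in WT1 to WT4 and 0.779, 0.882, 1.66 and 0.902 in KO1 to KO4. WT3, whose value corresponds to about 1.15 fragments on the longest transcript, had almost no Dcstamp, and WT1 was second only to KO3. The log2 fold change of Dcstamp was 1.42, with a 95% interval from -0.04 to 2.88 (limma's unadjusted p = 0.0549, exact permutation p = 0.114). Without WT1 it was called higher, by 1.93 (unadjusted p = 0.00632, adjusted p = 0.148).

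For Ocstamp (ENSMUSG00000027670, chr2:165393760-165400405, minus strand), FPKM was 0.361, 0.123, 0.0360 and 0.140 in WT1 to WT4 and 0.0933, 0.160, 0.406 and 0.219 in KO1 to KO4. Its single annotated transcript gives about 34.6, 10, 3.03 and 11.1 fragments in WT and 9.06, 13.1, 35.1 and 18.1 fragments in KO. The groups overlapped, with KO1 below WT2 and WT4. The difference in mean log2(FPKM + 0.1) was 0.32 (exact permutation test, two-sided p = 0.514). Ocstamp and Oscar were the 2 members in which a KO library lay below one of WT2 to WT4.

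Atp6v0d2 (ENSMUSG00000028238, chr4:19876841-19922605, minus strand) had an FPKM of 7.17, 1.79, 0.563 and 1.87 in WT1 to WT4 and of 2.60, 3.86, 4.10 and 2.05 in KO1 to KO4. WT1 was well above every KO library, and the other WT libraries were below them all. The log2 fold change was 0.61, with a 95% interval from -0.85 to 2.06 (limma's unadjusted p = 0.370, exact permutation p = 0.486). Without WT1 the gene was called higher, by 1.21 (unadjusted p = 0.0219, adjusted p = 0.188).

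Acp5 (ENSMUSG00000001348, chr9:22126727-22135711, minus strand) encodes the tartrate-resistant acid phosphatase, TRAP, the classical stain for osteoclasts, and macrophages can make it as well. Its FPKM was 83.1, 16.3, 5.51 and 22.6 in WT1 to WT4 and 34.1, 60.4, 75.8 and 47.7 in KO1 to KO4. The WT values spanned 15.1-fold and the KO values 2.22-fold, with WT1 above and WT2 to WT4 below every KO library. The log2 fold change of Acp5 was 1.36, with a 95% interval from -0.25 to 2.97 (limma's unadjusted p = 0.0875, exact permutation p = 0.171). Without WT1 it was called higher, by 2.03 (95% interval 0.96 to 3.11, unadjusted p = 0.00227, adjusted p = 0.145).

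Ctsk (ENSMUSG00000028111, chr3:95499256-95509362, plus strand) encodes cathepsin K, the protease that degrades collagen in the resorption pit. It was the member with the highest FPKM on average over the libraries, at 73.2, 18.5, 8.19 and 27.2 in WT1 to WT4 and 55.8, 85.3, 123.1 and 61.3 in KO1 to KO4. KO2 and KO3 exceeded all WT libraries, whereas KO1 and KO4 lay below WT1 and above WT2 to WT4. Ctsk rose from 31.8 ± 28.7 in WT to 81.4 ± 30.6 in KO (mean ± SD, n = 4), 2.56-fold in the means. The log2 fold change was 1.72 (standard error 0.59, 95% interval 0.37 to 3.07, limma's unadjusted p = 0.0186, adjusted p = 0.947), whereas the exact permutation test on this gene alone gave a two-sided p of 0.0857. The call was lost without KO3, where the log2 fold change was 1.49 (unadjusted p = 0.0525). Without WT1 the log2 fold change was 2.26 (unadjusted p = 0.000581, adjusted p = 0.145).

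Without WT1, 6 of the 7 tested members were called higher, all but Tnfrsf11a, and 2 of the 6, Dcstamp and Oscar, passed the filter only through KO. The same fit called 1810 of 15019 genes higher in KO (12.1%) and 1112 lower, so the background also grew. The members' median log2 fold change was 1.21 and that of all tested genes -0.02. Of the 9 members, 7 had every KO library above WT2, WT3 and WT4, against 11.1% of tested genes. Calcr is among the 7 although it was below the filter that defined the tested genes. At the adjusted threshold, limma called 0 members and 0 genes without WT1, with adjusted p of 0.145 to 0.305 among the members. WT1 was left out because of its values, some of them those of these genes, so these counts are a description of 7 libraries and not a second test. Leaving out WT3 instead lowered the difference below that of all 8 libraries for every member but Tnfrsf11a (0.44). The log2 fold changes were 1.22 for Ctsk, 0.84 for Dcstamp, 0.74 for Acp5, 0.42 for Oscar, 0.06 for Atp6v0d2 and 0.04 for Nfatc1. The differences were 0.63 for Calcr and 0.04 for Ocstamp. Only Ctsk was called there (limma's unadjusted p = 0.0362), at 3.97% of all tested genes.

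**Figure D2:**
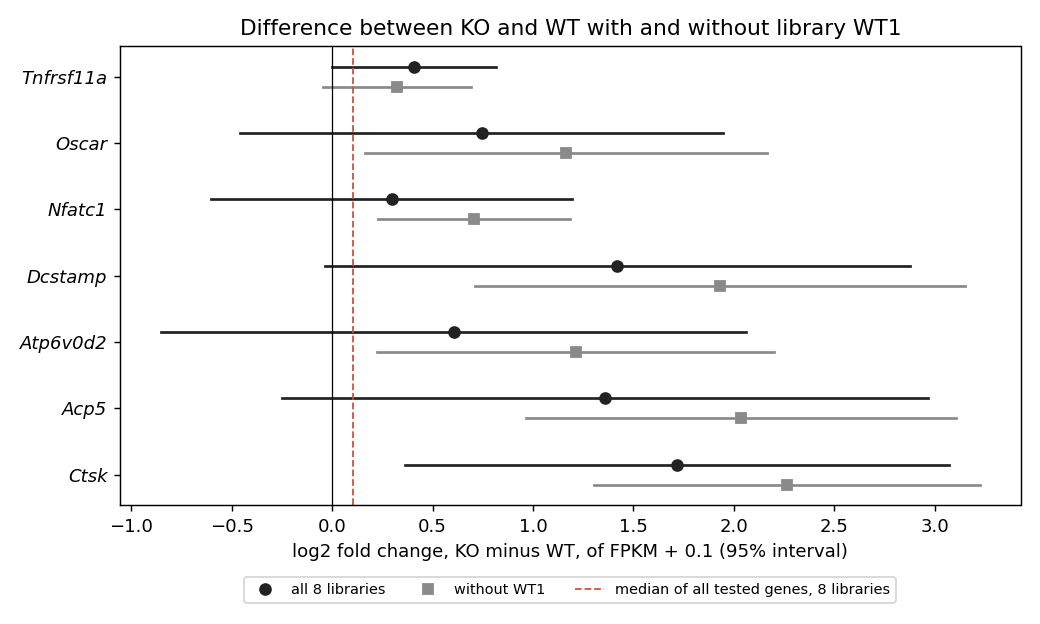
Log2 fold change (KO minus WT, of FPKM + 0.1) of the 7 tested osteoclast genes, with all 8 libraries (black circles) and without WT1 (grey squares). Bars are 95% intervals, and the dashed line is the median of all tested genes, 0.10. With 8 libraries the interval lies above 0 for Ctsk and, barely, Tnfrsf11a, and without WT1 for 6 genes, Tnfrsf11a being the exception.

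The osteoclast genes varied more between WT libraries than most genes did. The SD of log2(FPKM + 0.1) over the 4 WT libraries had a median of 1.31 over the 7 tested members and 0.416 over all tested genes. Such a spread was not particular to the members. Among markers in the lists below, it was 3.45 for S100a9, 2.83 for Sost and 1.69 for Hbb-bs. It was smaller for C1qb (0.526), Spp1 (0.403) and Ebf1 (0.289). Over the 4 KO libraries, the medians were 0.450 and 0.242, and 6 of the 7 members exceeded the median of all genes in each group. Tnfrsf11a was the steady one, with a WT range of 1.32-fold. Across the 8 libraries, which fall into the genotype groups and share depth and total within each library, Pearson's r with the mean of the other members was 0.987 for Ctsk, 0.978 for Acp5 and 0.965 for Dcstamp. It was 0.895 for Atp6v0d2, 0.893 for Oscar and 0.786 for Nfatc1, but 0.201 for Tnfrsf11a, which was lowest in the library where 5 of the others were highest. Outside the members, the genes most like their mean pattern over the 8 libraries were Hist1h2ba (r = 0.992), Cdca7 (0.989), Topbp1 (0.989), Limd2 (0.988) and Ffar2 (0.984). Hist1h2ba and Ffar2 had only 0.0229 and 0 FPKM in WT3, so their values there are uncertain.

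Ratios between members, which do not depend on the total of a library, were chosen after the values had been seen and carry no test. The ratio of Ctsk to Acp5 was 0.881 to 1.49 in WT and 1.28 to 1.64 in KO, a narrow span beside the 15.1-fold range of Acp5 itself in WT. The ratio of Nfatc1 to Ctsk was 0.236 to 0.528 in WT and 0.0827 to 0.191 in KO, and here the groups did not overlap, WT1 (0.242) included. The ratio of Tnfrsf11a to Ctsk spanned 0.0349 to 0.402 in WT and 0.0355 to 0.0676 in KO, with the lowest value in WT1.

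Markers of other cells of bone, marrow and blood differed between the libraries alongside these genes. In bulk RNA, fewer cells of a type and less RNA per cell cannot be told apart. The summed FPKM of the 9 members was 187, 46.7, 22.2 and 62.9 in WT1 to WT4 and 109, 166, 221 and 124 in KO1 to KO4. The neutrophil list of 12 genes, led by S100a9, ran from 53.9 in WT3 to 10193 in WT1 and from 1788 to 5381 in KO. It thus had its extremes in the libraries that were lowest and, among WT, highest for the osteoclast genes. Limma called 0 of its 12 genes with 8 libraries, and 12 of 12 were called higher without WT1. Over all tested genes, 4.61% were called higher with 8 libraries and 12.1% without WT1. The erythroid list of 9 genes, led by Hbb-bs, was 450 to 7472 in WT and 4908 to 12116 in KO, with 3 genes called higher and 9 without WT1. The B lineage list of 8 genes, led by Ebf1, was 34.3 to 66.6 in WT and 68.4 to 122 in KO, with 4 called higher and 6 without WT1.

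Macrophages share an origin with osteoclasts, and osteoblasts and osteocytes share their place. The macrophage list of 10 genes, led by C1qb, was 62.9 to 124 in WT and 65.5 to 143 in KO, and 0 of 10 were called by limma with 8 libraries. Without WT1, 3 macrophage genes were called higher (Cd68, Mrc1 and Aif1), all 10 had a positive log2 fold change and the list median was 0.60. In that fit, 7016 of 15019 tested genes had a positive log2 fold change and 12.1% were called higher. The osteoblast and osteocyte list of 12 genes, led by Spp1, was 1189 to 2094 in WT and 1915 to 2410 in KO, with 2 genes, Col1a1 and Sost, called higher and 6 without WT1. Its sum is mostly Spp1, at 695 to 1297 in WT and 1196 to 1577 in KO, and hides the other genes. Of the 12, 11 were lowest in WT3, not Spp1. Sost was 0.128 FPKM in WT3 and 8.09 to 15.7 in the other WT libraries. The 13 cochlear markers were present in every library. Their sum, 1599 to 2476 in WT and 1721 to 2180 in KO, is mostly Coch, at 1231 to 1927 in WT and 1433 to 1841 in KO. Of the 13, 11 were highest in WT3, the library lowest for most osteoclast genes, and 7 were lowest in WT1. With 8 libraries 0 were called higher and 1, Tectb, lower. Without WT1, 3 were called lower (Tectb, Kcnq1 and Kcne1), 0 higher, and the list median was -0.35, opposite in sign to that of the members. No marker of these 3 lists was at 0 in any library, and 1 neutrophil gene was. The part of marrow, blood, bone or the share of cochlear tissue in the differences of the osteoclast genes was not tested.

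**Figure D3:**
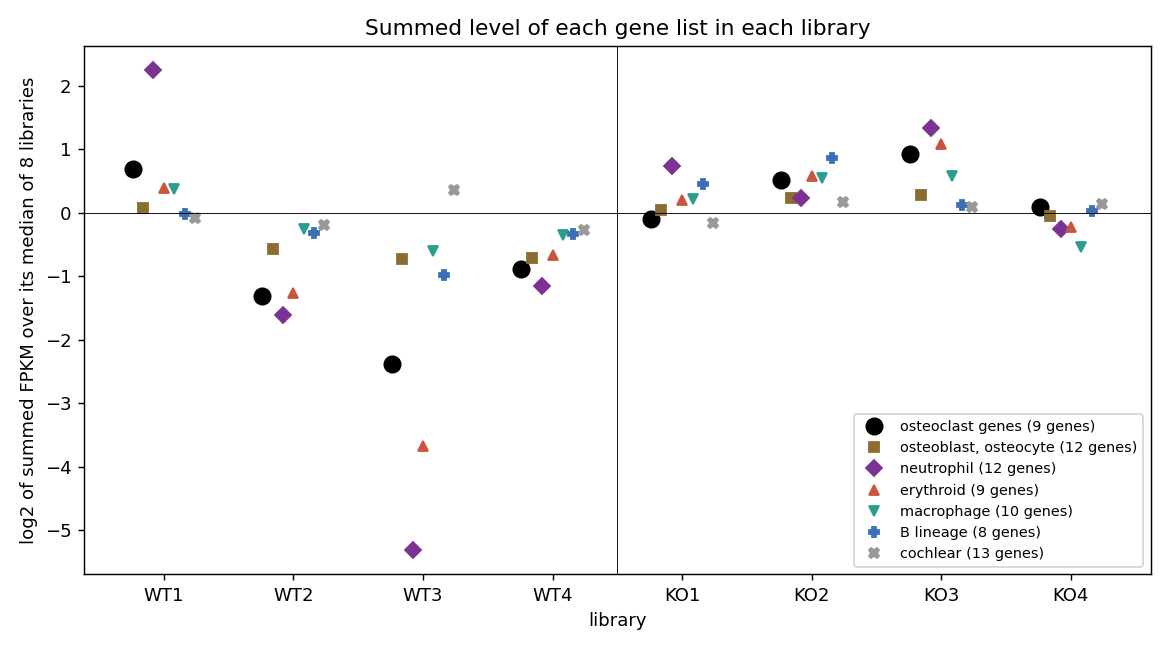
Summed FPKM of the 9 osteoclast genes and of 6 marker lists in each library, as log2 of the ratio to the list's median over the 8 libraries. The osteoclast sum and every marker sum except the cochlear one are lowest in WT3 and, among the WT libraries, highest in WT1. The cochlear sum, which is mostly Coch, is highest in WT3. The osteoblast and osteocyte sum is mostly Spp1.

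Other genes of osteoclast formation and function were counted over 4 lists chosen for their known roles, but with earlier results of these data known. Of 71 tested, 9 were called higher in KO and 0 lower (12.7%, against 4.61% of all tested genes higher), 0 of them at the adjusted threshold in limma. Their median log2 fold change was 0.20. Median-ratio scaling called 5 of them and quantile normalization 1, and leaving out KO1, KO2 or KO3 called 5, 4 and 1. Without WT1, 25 were called higher (35.2%, against 12.1% of all tested genes) and 1 lower, the lower one being Syt7, a vesicle fusion protein that neurons also use. Among the 25 were Tyrobp, Syk, Btk and Spi1, each highest in WT1 and lowest in WT3, the extremes of the neutrophil list. Tnfsf11 and Siglec15 were lowest in WT3 but not highest in WT1. Whether the higher share is particular to osteoclast genes was not tested.

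Among 20 ligands, receptors and signalling genes, 3 rose, and the median log2 fold change was 0.56. Without WT1, 10 were called higher, with a median of 0.47. Tnfsf11, the gene for RANKL itself, rose from 0.375 ± 0.203 to 0.901 ± 0.104 FPKM (mean ± SD, n = 4), a log2 fold change of 1.22 (limma's unadjusted p = 0.0220, adjusted p = 0.947). Its KO libraries, from 0.774 to 1.01, all lay above its WT libraries, from 0.0786 to 0.540. Siglec15, a sialic acid receptor of osteoclast precursors, rose by a log2 fold change of 1.35 (unadjusted p = 0.0112, adjusted p = 0.947), likewise with separate groups. The WT means of Tnfsf11 and of Siglec15 (0.250 FPKM) were under the filter of 0.5, so that both were tested only through their KO levels (0.828 FPKM for Siglec15), and they count among the 9 called. Il34, an alternative ligand of the M-CSF receptor, rose by 0.48 (unadjusted p = 0.0410, adjusted p = 0.947), with overlapping groups. Without WT1, Tnfsf11 and Siglec15 were called, at log2 fold changes of 1.42 and 1.52, whereas Il34 lost its call (0.40, unadjusted p = 0.0725). Tnfsf11 and Siglec15 again passed the filter only through KO, with WT means of 0.320 and 0.205 FPKM. The same holds for Sirpb1a, at 0.494 in WT and 2.27 in KO. All of them count among the 10 called higher without WT1.

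Other genes of the balance around RANKL were not called. Tnfrsf11b, which encodes osteoprotegerin, averaged 34.9 ± 8.07 FPKM in WT and 30.7 ± 1.13 FPKM in KO (mean ± SD, n = 4), with a log2 fold change of -0.16 (limma's unadjusted p = 0.370). Csf1, the gene for M-CSF, had a log2 fold change of -0.11 (unadjusted p = 0.587), and its receptor gene Csf1r one of 0.10 (unadjusted p = 0.725). These 3 genes were singled out after their values had been seen.

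Of 18 transcription factors and their antagonists that were tested, 4 rose, with a list median of 0.45. Without WT1, 6 were called higher, with a median of 0.29. Nfkb2 and Relb, partners in the non-canonical NF-κB dimer, rose by log2 fold changes of 0.52 (limma's unadjusted p = 0.0110) and 0.44 (unadjusted p = 0.0372). Nfkb2 was very steady in WT, at 4.88 to 5.06 FPKM, and lay at 5.53 to 8.17 in KO. Jdp2 and Fosl2, which belong to the AP-1 family, rose by 0.45 (unadjusted p = 0.0163) and 0.67 (unadjusted p = 0.0351). The adjusted p was 0.947 for each of the 4, and the groups were separate for all but Fosl2. Relb lost its call without WT1 (log2 fold change 0.34, unadjusted p = 0.0542), and Nfkb2, Jdp2 and Fosl2 were called there too.

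Of 24 genes for acid secretion, the ruffled border and matrix breakdown, 1 rose, and the list median of 0.07 lay below that of all genes. Without WT1, 4 other genes were called higher and Syt7 lower, and the median was -0.09. The 1 gene that rose with 8 libraries was Mmp14, a membrane metalloprotease that many connective tissue cells make. Its log2 fold change was 0.30 (limma's unadjusted p = 0.0432, adjusted p = 0.947). Mmp14 lost its call without WT1 (0.26, unadjusted p = 0.0541). Car2, the carbonic anhydrase that supplies protons, had a log2 fold change of 0.56 (unadjusted p = 0.0920). Mmp9, the gelatinase that osteoclasts share with neutrophils, had the largest value of the list, 1.75 (unadjusted p = 0.126), with WT libraries from 2.27 to 142 FPKM and KO libraries from 53.8 to 105. Without WT1, Car2 and Mmp9 were called, at log2 fold changes of 0.77 (unadjusted p = 0.0129) and 2.68 (unadjusted p = 0.00750). Much of the list encodes proton pump subunits and lysosomal proteins that nearly all cells use, unlike the subunit Atp6v0d2.

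Of 9 further genes for fusion and adhesion, 1 rose, with a list median of 0.36. Sh3pxd2a, the scaffold Tks5 of podosomes, rose by a log2 fold change of 0.65 with separate groups (limma's unadjusted p = 0.0238, adjusted p = 0.947). Cd47, the ligand of SIRPα in precursor fusion, had a log2 fold change of 0.32 (unadjusted p = 0.0528), and Myo1d, an unconventional myosin, one of 0.36 (unadjusted p = 0.0809). Without WT1, 5 of the 9 were called higher, with a median of 0.33, Sh3pxd2a, Cd47 and Myo1d (0.42, 0.33 and 0.51) among them.

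**Figure D4:**
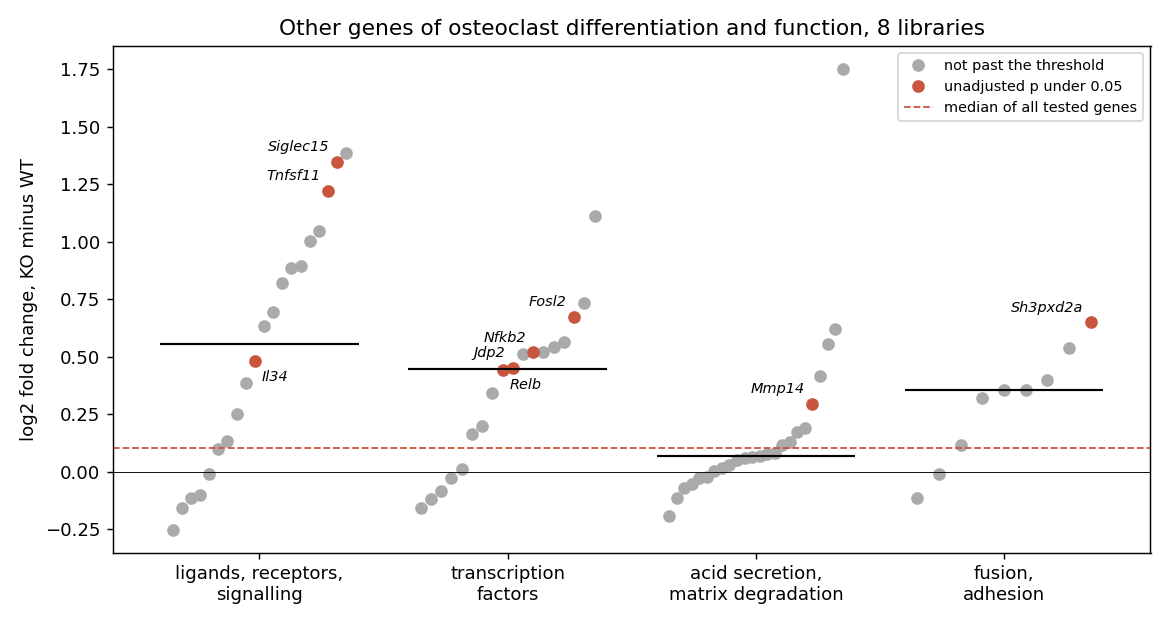
Log2 fold change (KO minus WT, of FPKM + 0.1, 8 libraries) of 71 other genes of osteoclast formation and function in 4 lists, ordered by value within a list. Red points passed an unadjusted p of 0.05, black lines are list medians and the dashed line is the median of all tested genes. The 9 called genes are all above 0, and the acid secretion and matrix list lies around the median of all genes.

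Of the 6 genes described as miR-29 targets in this lineage, 5 were tested and 1 rose, while Calcr was below the filter as given above. Cd93, a surface protein of myeloid precursors and endothelium, rose from 7.93 ± 2.89 to 13.4 ± 2.06 FPKM (mean ± SD, n = 4), a log2 fold change of 0.80 (limma's unadjusted p = 0.0108, adjusted p = 0.947). Without WT1 its log2 fold change was 1.02 (unadjusted p = 0.000296, adjusted p = 0.145), and it was again the 1 gene called of the 5. Its 3′-UTR match, shown above, is followed by an A, as in Ocstamp and as in 1 of the copies in Nfia. The adhesion and cytoskeleton genes Cdc42 and Srgap2 had log2 fold changes of 0.16 (unadjusted p = 0.334) and -0.18 (unadjusted p = 0.293). For the factor Nfia and the orphan receptor Gpr85 they were -0.01 (unadjusted p = 0.960) and -0.32 (unadjusted p = 0.611). The 3′-UTRs of Cdc42, Srgap2 and Nfia hold 1, 2 and 3 copies of TGGTGCT and that of Gpr85 holds 0, so that copies occurred both in the target that rose and in targets that were not called.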

How the data were processed

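The authors extracted total cochlear RNA with Trizol, removed ribosomal RNA, made strand-specific libraries and mapped paired-end reads with Hisat2. The deposited values are FPKM per gene and library. The tool and annotation behind them are not given in the sources used here. The submitters' processing notes name mm9, whereas 19771 of 21760 matched gene identifiers have their GRCm38 coordinates (GENCODE M21), 8 of the 9 members among them (not Oscar). Symbols turned into dates were restored from identifiers (27 genes). All sample columns were used.

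The members and gene lists were chosen with earlier results of these data known. Log2(FPKM + 0.1) was fitted with limma 3.58.1 (R 4.3.3), genotype as the only factor and variances with a mean-variance trend, over genes whose mean FPKM reached 0.5. The unadjusted threshold of 0.05 is that of the study, and Benjamini-Hochberg adjustment covered all tested genes. The study tested counts, which were not used here. Its RNA-seq comparison names 3 libraries per group without saying which, whereas 4 per group were analysed here, so the comparison of all 8 may not be the study's and replicates 1 to 3 were tried alone. Members below the filter were compared by exact two-sided permutation tests. The script was tested on simulated data. Fragments were estimated from FPKM steps: 55.4% to 64.8% of low values fell within 0.05 of whole fragments, against 10% if spread evenly. The library size was chosen to make this share largest, so 10% is not the share expected after that choice.

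Named genes besides the members were the 3 with the smallest p in each list, any called in the other direction, the described miR-29 targets, each list's most abundant marker and the 5 genes most correlated with the members. Relb, Tnfrsf11b, Csf1, Csf1r, Col1a1, Sost, Tectb and Syt7 were added after their values were seen. The same holds for Cd68, Mrc1, Aif1, Kcnq1, Kcne1, Tyrobp, Syk, Btk, Spi1 and Sirpb1a. The alternatives were a pseudocount of 1, no filter or a minimum of 1 on the mean FPKM, scaling by the median ratio, quantile normalization, variances without the trend, a replicate block, replicates 1 to 3 only, each library left out, and, chosen after seeing the data, WT1 and WT3 left out.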

Additional observations from a re-analysis of the deposited data

How the results depend on the processing

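No member's log2 fold change turned its sign in any of the 17 alternative settings, but these settings share libraries and some values came close to no difference. Without WT3, the value was 0.04 for Nfatc1 and for Ocstamp and 0.06 for Atp6v0d2. With 8 libraries, 2 members, 9 of the other osteoclast genes and 767 of all tested genes were called. Median-ratio scaling called 1 member and 5 other osteoclast genes, and quantile normalization called 1 and 1, whereas variances without the trend called 3 members, Dcstamp being added (unadjusted p = 0.0486). These scalings moved the median log2 fold change of all genes from 0.10 to 0.00 and -0.04, and the genes called higher and lower from 691 and 76 to 402 and 363 and to 378 and 547. With replicates 1 to 3 only, 1 member was called, at 4.51% of all tested genes. Without WT1 and WT3, which was chosen after seeing the data, 4 members, 24 other osteoclast genes and 2430 genes were called. Oscar (limma's unadjusted p = 0.0853), Atp6v0d2 (0.0528) and Tnfrsf11a (0.118) were not among the 4. Leaving out each library in turn gave 0 to 6 members, 1 to 26 other osteoclast genes and 347 to 2922 genes. The lowest counts came without KO3 and the highest without WT1, which called 1810 genes higher and 1112 lower. Without WT2, WT3, WT4, KO1 or KO2, 1 member was called, as Tnfrsf11a lost its call. The share of all tested genes called was 3.85%, 3.97%, 4.59% and 4.05% without WT2, WT3, WT4 and KO1, and without KO2 the counts of other osteoclast genes and of all genes were 4 and 377. Without KO1, 5 other osteoclast genes were called. WT and KO libraries share replicate numbers, but the deviations of same-numbered libraries correlated at 0.419, -0.24, -0.17 and 0.21 across genes, so the numbers were not taken as pairs. A replicate block called 1 member, 9 other osteoclast genes and 838 genes. A minimum mean FPKM of 1 left no value for Dcstamp and Oscar, and quantile normalization none for Calcr and Ocstamp. The causes of these changes were not tested. Depth limits Calcr, Ocstamp and the WT3 value of Dcstamp, which rest on few fragments.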

Other observations

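Genes of skeletal muscle, which attaches to the temporal bone, were summed over 6 markers led by Acta1. Their summed FPKM was 0.478 to 8.99 in WT and 2.68 to 307 in KO, with the highest value in KO3 and 34.8 in KO4. KO3 was also the library with the highest Ctsk, Dcstamp and Ocstamp. Of the 6 muscle genes, 1 was called higher in KO with 8 libraries, against 4.61% of all tested genes. Without WT1, 1 was likewise called higher, against 12.1% of all tested genes, and the list median was 2.66.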
